A study of Mus musculus with 2 samples.

Results

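The nuclear genes of the mitochondrial respiratory chain were examined in brain RNA of mouse embryos at E10.5 (embryonic day), measured on 2 Affymetrix arrays. The KO (knockout) group and the WT (wild type) group each had 1 array, and the strain is given as C57BL/6 for KO and WT alike. The labels name neither the gene deleted in the KO sample nor how many embryos it or the WT sample holds, so limits of the knockout as a model could not be given. Members were chosen by symbol alone: genes whose symbol starts with Ndufa, Ndufb, Ndufc, Ndufs, Ndufv, Uqcr, Cox4, Cox5, Cox6, Cox7, Cox8 or Atp5, together with Sdha, Sdhb, Sdhc, Sdhd and Cyc1. This gave 91 of 18201 named genes, measured by 180 probe sets, and each gene was read from its brightest probe set, by the mean of KO and WT. The prefix Ndufa also takes in 8 complex I assembly factors (Ndufaf1 to Ndufaf8), which are not subunits and are described separately. The other 83 genes were 34 of complex I, 4 of complex II, 9 of complex III, 19 of complex IV and 17 of complex V.

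The respiratory chain sits in the inner mitochondrial membrane. Complexes I and II pass electrons from NADH and succinate to ubiquinone, complex III passes them on to cytochrome c, and complex IV hands them to oxygen. Complexes I, III and IV pump protons as they do so, and complex V, the ATP synthase, uses the returning protons to make ATP. Most subunits are encoded in the nucleus and imported, while a small core of complexes I, III, IV and V is encoded by mitochondrial DNA. Neuroepithelial cells of the early brain draw heavily on glycolysis, and neurons come to depend on this chain.

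Intensities are the linear probe set values deposited by the authors. Differences are KO minus WT on the scale log2(intensity + 16), after both arrays had been set to the same median. The level filter asks that the higher array reach an intensity of 41.6, the median of the mean level over all named genes. With 1 array a group there is no replicate error and no test, and every difference is between these arrays. The intensity of a probe set also depends on its probes, so values are compared between arrays and not between genes.

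Facts of both arrays touch everything below. Of 14 measured brain markers, 13 passed the level filter. The 14 summed to 9640 in KO and 10661 in WT, with 9 of them lower in KO (median -0.17). None of 16 heart and muscle markers passed the filter, with sums of 92.8 and 89.7, and 1 of 9 liver and endoderm markers did (sums of 80.3 and 89.0). Red cell markers summed to 14195 and 15773, a sum carried by 3 globins, while 6 of 10 were higher in KO (median 0.24). Head mesenchyme and neural crest markers summed to 3049 and 2989, with 7 of 10 higher (median 0.14). Endothelial markers summed to 649 and 695, with 7 of 8 lower (median -0.061). The 11 macrophage markers summed to 239 and 573, with 10 of them lower in KO (median -0.74). The part of these marker lists in the results on the chain was not tested. Xist, the RNA of the inactive X chromosome, read 2023 in KO and 5.19 in WT, and the Y-linked Eif2s3y read 0.27 and 254, so that the arrays differ in sex-linked signal as they do in genotype label, and these cannot be told apart. In RNA from whole tissue, fewer cells of a type and less RNA per cell cannot be told apart either.

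The respiratory chain as a whole was nearly level between the arrays, with a slight lean to lower signal in KO. Of the 91 genes, 68 were lower in KO (74.7%), where 49.7% of all named genes were lower. The median difference was -0.062, a KO signal of 0.958 times WT, with quartiles of -0.11 and 0.0046, while the median over all named genes was 0.0011. No member was 2-fold apart, where 0.333% of the 9299 named genes passing the filter were. None was 1.5-fold apart on this scale either, against 1.45% of those genes. At a smaller threshold of 0.32 log2 units 1 member was lower (background 2.72%) and 2 were higher (background 4.26%). These 3 are Cox7c, Ndufaf7 and Atp5md. In all, 83 of the 91 lay within 0.2 log2 units of equal signal, against 74.2% of all named genes. Among genes passing the filter, 90.4% of members and 81.3% of all named genes did. These shares were not matched for level, and the members were mostly brighter. By level among all named genes, the median percentile of those passing was 96.6 for members and 74.5 for all. Bright genes were less spread in general. Quartiles of other named genes were -0.10 and 0.12 under 500, and -0.086 and 0.023 from 1000 to 2000. Members from 1000 to 2000 had -0.11 and -0.056. Of the members, 83 passed the level filter (not the same 83), of which 64 were lower, beside 50.2% of all genes passing it. Since the filter reads the higher array, this second count is a description only. The 8 that did not pass are Ndufb4 and 7 isoforms of complex IV known from other tissues.

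**Figure D1:**
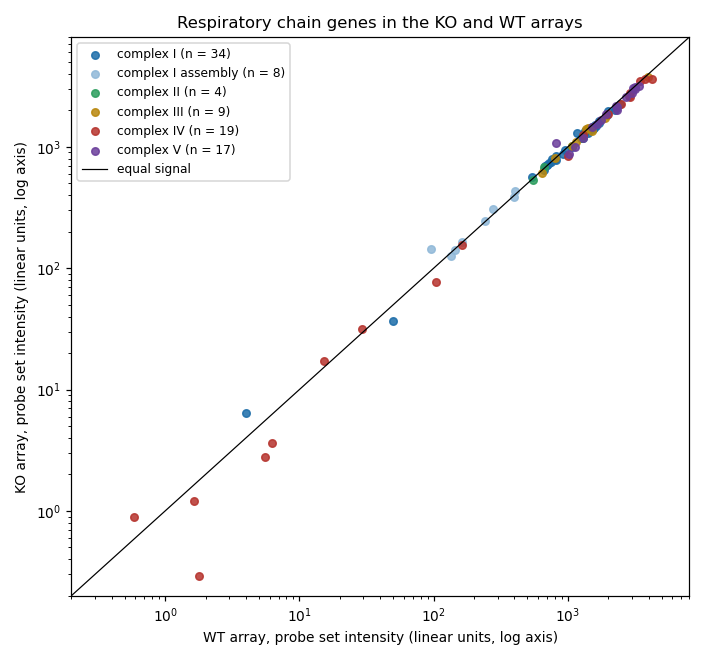
Each point is 1 of the 91 genes, with its WT intensity on the horizontal and its KO intensity on the vertical axis, both on log axes, coloured by complex. Nearly all points lie on or just under the line of equal signal, and the few points far down the line are isoforms of complex IV and the dim probe set of Ndufb4.

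The promoters of these genes were read because sites for the factors NRF1, GABP (an ETS factor) and YY1 are known from nuclear genes of respiration. The RefSeq promoter table used here (GRCm38.p6) held 74 of the 91 genes, and the 250 bases before the start site were searched on both strands. The NRF1 motif was found for 12 of the 74 (16.2%), against 10.8% of 7570 other named genes that passed the level filter and 4.23% of all 27025 genes of the promoter table. The ETS core CCGGAAG was found for 14 (18.9%), against 17.4% and 7.83%, and the YY1 motif AAGATGGC for 1 (Atp5j), which is 1.35% against 2.63% and 1.83%. No motif contains another, and on the opposite strand the ETS core reads CTTCCGG. The stretches of 3 members are shown first because these, Cox6a1, Sdhd and Atp5h, are the members with both the NRF1 and the ETS motif, 4.05% of the 74 against 1.98% of the other genes passing the filter. They belong to complexes IV, II and V, and the capitals mark the motifs. The Cox6a1 stretch is chr5:115348959-115349090, that of Sdhd is chr9:50603874-50603943 and that of Atp5h is chr11:115419936-115420075, all on the minus strand and all upstream of the gene.
Cox6a1: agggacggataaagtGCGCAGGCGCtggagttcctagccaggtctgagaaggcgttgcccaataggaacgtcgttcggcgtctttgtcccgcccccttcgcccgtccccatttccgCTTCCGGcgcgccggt
Sdhd: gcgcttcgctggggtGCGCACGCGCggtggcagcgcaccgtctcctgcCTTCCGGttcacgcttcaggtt
Atp5h: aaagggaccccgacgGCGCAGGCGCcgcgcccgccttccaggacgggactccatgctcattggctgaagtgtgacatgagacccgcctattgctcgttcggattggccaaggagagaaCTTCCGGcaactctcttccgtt
The other stretches, chosen after their values were seen, belong to Ndufaf7 and Atp5md, the members highest in KO, and to Cox7a2l, the lowest after the dim Cox7c and Ndufb1. They lie at chr19:47090648-47090727 on the minus strand for Atp5md, at chr17:78937055-78937105 on the plus strand for Ndufaf7, and at chr17:83514334-83514413 on the minus strand for Cox7a2l. These 3 windows held none of the motifs, which says only that these letters are not in them.
Atp5md: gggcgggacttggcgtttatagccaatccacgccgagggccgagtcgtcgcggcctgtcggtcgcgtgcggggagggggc
Ndufaf7: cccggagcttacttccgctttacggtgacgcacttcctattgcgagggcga
Cox7a2l: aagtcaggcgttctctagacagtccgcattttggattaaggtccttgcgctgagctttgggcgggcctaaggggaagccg
Members with and without a motif differed little between the arrays. The median difference was -0.046 for the 12 with the NRF1 motif, 8 of them lower, and -0.065 for the 62 without, 48 of them lower. For the ETS core it was -0.070 over 14 members and -0.064 over 60.

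Complex I, which oxidises NADH, was close to level. Of its 34 members, 25 were lower in KO, and the median was -0.046 with quartiles of -0.11 and 0.011. After quantile normalisation 21 were lower (median -0.025), after the loess 19 (median -0.017), and the median was also -0.017 without probe sets of suffix x or s. At a common median all but 1 lay within 0.2 log2 units. The 6 measured core subunits that carry flavin or iron-sulphur centres or line the path to ubiquinone went both ways, with a median of -0.049. Ndufv1, which binds NADH and flavin, read 799 in KO and 766 in WT (0.059). Ndufs1, the largest iron-sulphur subunit, read 565 and 539 (0.066). Both were slightly higher in KO, in contrast to the iron-sulphur subunit Ndufs8, at 1173 and 1306 (-0.15). Ndufv2, Ndufs3 and Ndufs7 differed by -0.084, -0.099 and -0.014, the last turning to higher after the loess. Another probe set of Ndufv2 went the other way, at 1562 in KO and 1464 in WT (0.091). Ndufs8 has 6 probe sets above the filter, and they ranged from -0.26 to 0.41, the lowest from a bright set (1115 and 1336) and the highest from a dim one (46.5 and 31.1).

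The accessory subunits of complex I, which surround the core and stabilise it, were mostly lower in KO. Of 17 outside the Ndufb group, 14 were lower, with a median of -0.073. Ndufc1 read 1993 and 2243 (-0.17), the largest gap among them, and its second probe set differed by -0.12. Ndufa12, an accessory subunit with the brightest probe set of this complex, stood at 2267 and 2443 (-0.11). Ndufa13, also known as the cell death regulator GRIM-19, read 1428 and 1568 (-0.13). Ndufab1, the mitochondrial acyl carrier protein, read 1303 and 1404 (-0.11). Ndufa9 (-0.0024) and Ndufc2 (-0.012) were level, and Ndufa5 (0.015), Ndufs4 (0.022) and Ndufs5 (0.039) lay marginally on the other side. Other probe sets stood at -0.27 for Ndufa5 (399 in KO and 484 in WT) and 0.12 for Ndufc2 (1352 and 1242). The 11 Ndufb subunits of the membrane arm had a median of -0.0027, with 7 lower.

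Within the Ndufb group the extremes lay on either side. Ndufb6 was the highest in KO among complex I members passing the filter, at 1296 and 1170 (0.14), and its second probe set differed by 0.064 in the same direction. Ndufb1 read 36.5 and 49.5 (-0.32), just short of the 0.32 threshold, but its only probe set was barely above the filter in WT and below it in KO. Ndufb7 read 1407 and 1535 (-0.13), and Ndufb2 read 845 and 810 (0.060). Ndufb4 was represented by a background-level probe set, at 6.37 and 4.01, since the bright probe sets for this gene are also annotated to its copies Ndufb4b and Ndufb4c. The X chromosome carries Ndufa1 (chrX:37187588-37191238) and Ndufb11 (chrX:20615326-20617619), both subunits needed to build the membrane arm. Ndufa1 read 2086 and 2273 (-0.12), and Ndufb11 read 1818 and 1947 (-0.099). Both were lower in KO under all 3 scalings, while the 317 X-linked genes passing the filter had a median of 0.019. Those genes were mostly dimmer. Ranked by level among all named genes, their median percentile was 76.6, against 98.6 for Ndufa1 and 98.2 for Ndufb11.

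The 8 assembly factors, which help to build complex I and then leave it, did not lean lower. Their median was 0.015, which turned to -0.00046 after quantile normalisation, and 3 of 8 were lower. Ndufaf7, a mitochondrial methyltransferase, read 143 in KO and 95.4 in WT. Its difference of 0.51 was the largest of all 91 members, an intensity ratio of 1.5, and it rests on a single probe set. Ndufaf2, an assembly chaperone related to Ndufa12, came next at 306 and 279 (0.13). Ndufaf8 read 431 and 405 (0.085), but its other probe set above the filter went the opposite way (-0.32). Ndufaf1, Ndufaf3, Ndufaf4, Ndufaf5 and Ndufaf6 lay between -0.064 and 0.019.

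**Figure D2:**
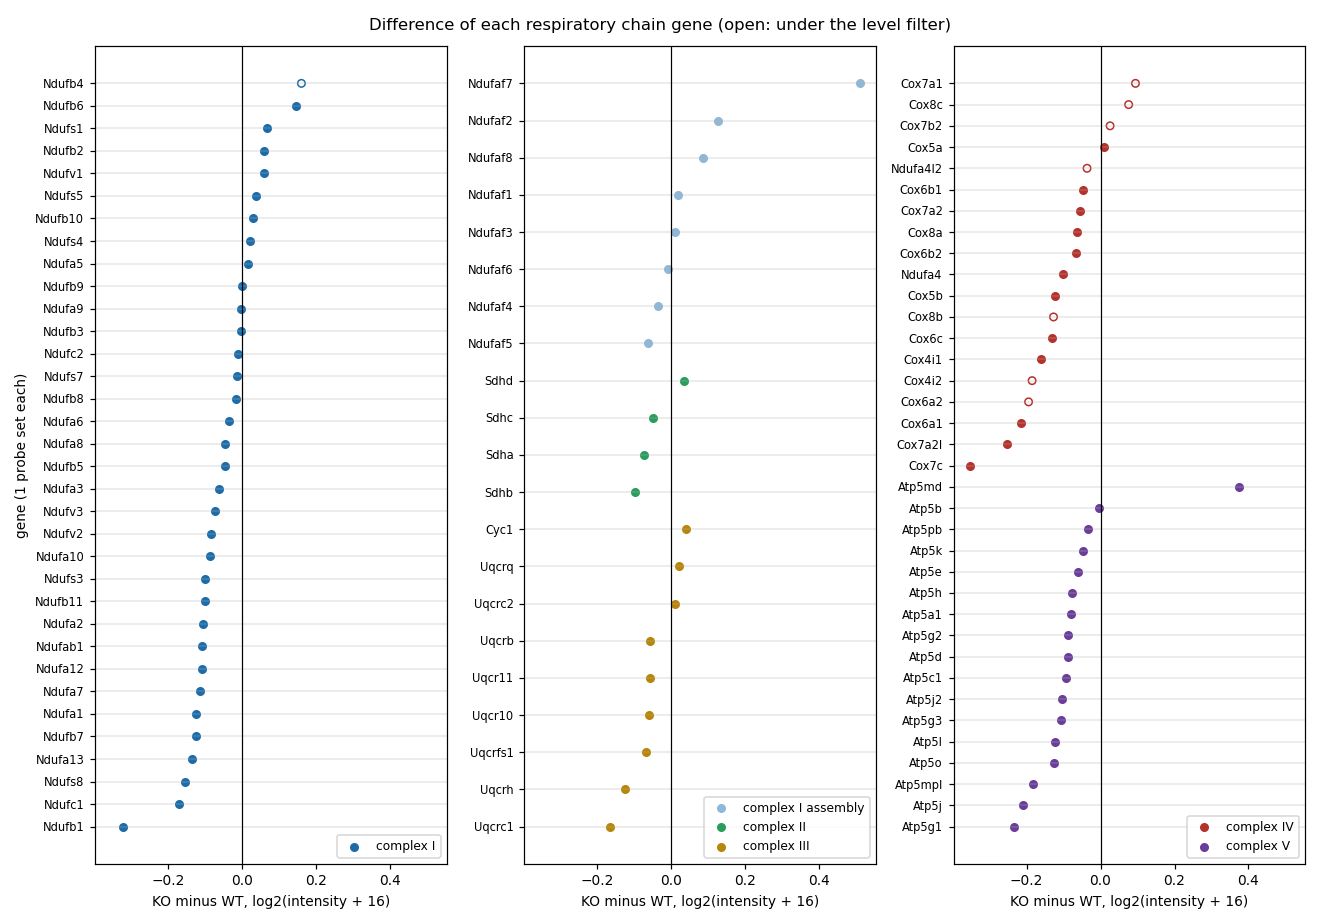
Each row is 1 gene, placed by its difference between the arrays on the log2(intensity + 16) scale, grouped by complex and sorted within it. Open points are genes under the level filter. Ndufaf7 (0.51) and Atp5md (0.37) stand alone on the right and Cox7c (-0.35) and Ndufb1 (-0.32) on the left, while the rest lie between -0.25 and 0.16.

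Complex II, or succinate dehydrogenase, is shared with the citric acid cycle and is the only complex with no subunit from mitochondrial DNA. Sdha, the flavin subunit, read 1019 in KO and 1072 in WT (-0.073). Sdhb, the iron-sulphur subunit, read 1182 and 1266 (-0.099). The membrane anchors Sdhc and Sdhd read 528 and 547 (-0.049) and 676 and 660 (0.034). All 4 genes lay within 0.1 log2 units, 3 of them on the lower side, and the median was -0.061, or -0.021 when probe sets were averaged.

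Complex III, the cytochrome bc1 complex, had a median of -0.059 over 9 genes, 6 of them lower, and of -0.028 with the loess and also when probe sets were averaged. Its electron-carrying nuclear subunits stood on opposite sides. Cyc1, cytochrome c1, read 1394 and 1355 (0.039), and Uqcrfs1, the Rieske iron-sulphur protein, read 1096 and 1150 (-0.069). Uqcrc1, a core scaffold subunit, was the lowest at 1345 and 1508 (-0.16), while its partner Uqcrc2 was level at 1419 and 1409 (0.0093). Uqcrh, the hinge protein that helps cytochrome c to dock, read 1734 and 1890 (-0.12) and differed by -0.10 on its second probe set. Uqcrb read 3789 and 3937 (-0.056), but its second probe set stood at 0.11 and its sign turned after both quantile normalisation and the loess. The remaining genes were Uqcr10 (-0.061, with another probe set at 0.24), Uqcr11 (-0.059) and Uqcrq (0.020).

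Complex IV, cytochrome c oxidase, had a median of -0.10, with 15 of 19 genes lower, and 13 lower after quantile normalisation and after the loess. The median was the lowest of the 5 complexes under the 3 scalings, but at a pseudocount of 64 it was -0.056 against -0.085 for complex V and -0.058 for complex II. Without probe sets of suffix x or s it was -0.068, against -0.087 for complex V. The 10 widely expressed subunits had a median of -0.11, and 9 were lower. Cox4i1, the largest nuclear subunit, read 2581 and 2883 (-0.16). Cox6a1, a regulatory subunit, read 3651 and 4240 (-0.22), with -0.14 on its other probe set. Cox4i1 has a single probe set, and both of Cox6a1 were lower in KO. Cox5b, which binds zinc, read 2606 and 2835 (-0.12), and its 4 probe sets above the filter lay between -0.14 and -0.068. Cox5a, a matrix-side subunit, was level at 3498 and 3472 (0.0096), with other probe sets at 0.056 and -0.20. Cox6c read 2256 and 2470 (-0.13), against 0.15 on its second probe set. Ndufa4, long listed under complex I and now counted with complex IV, read 1860 and 1995 (-0.10). Cox8a (-0.064), Cox7a2 (-0.055) and Cox6b1 (-0.047) were nearer to level, and the last pair turned to higher after quantile normalisation and after the loess.

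Cox7c and Cox7a2l were the farthest from level in this complex. Cox7c, one of the small subunits of the enzyme, read 77.7 in KO and 104 in WT (-0.35), the lowest difference of all 91 genes. Both of its probe sets were dim, and the other one differed by -0.13. Cox7a2l, a relative of Cox7a2 described as a factor joining complexes III and IV into supercomplexes, read 844 and 1008 (-0.25). Whether it does so in this strain was not measured. The other probe sets of Cox7a2l differed by -0.17 and -0.010, so that all 3 were lower but by unequal amounts. No probe set was named to Cox7b, and it was not analysed here.

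Subunit isoforms known from other tissues were near background in both arrays, with 1 exception. The heart and muscle isoforms Cox6a2 (2.79 in KO and 5.50 in WT), Cox7a1 (17.3 and 15.1) and Cox8b (0.29 and 1.79) were under the filter, as were all measured heart and muscle markers. Cox4i2, known from lung, read 3.61 and 6.29, and Ndufa4l2, known as a hypoxia-induced relative of Ndufa4, read 1.21 and 1.65. The testis isoforms Cox7b2 (0.89 and 0.59) and Cox8c (31.7 and 29.2) were also under it. Cox6b2, likewise known from testis, was the exception at 154 and 162 (-0.065), above the filter in both arrays. Their ubiquitous counterparts Cox4i1, Cox6a1, Cox6b1, Cox7a2, Cox8a and Ndufa4 all passed the filter.

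Complex V, the ATP synthase, had 16 of 17 genes lower and a median of -0.087 at a common median. That count was 11 after quantile normalisation and 12 after the loess, with medians of -0.019 and -0.024. In the catalytic head and central stalk, Atp5a1 (2169 in KO and 2292 in WT, -0.080) and Atp5c1 (2557 and 2726, -0.093) differed alike, although the probe sets of Atp5a1 ranged up to 0.44. Atp5b, the catalytic beta subunit, was level at 3067 and 3072 (-0.0035) and turned to 0.077 and 0.075 under those scalings. Atp5d and Atp5e differed by -0.087 and -0.062. The 3 genes of the c ring, the rotor in the membrane, encode the same mature protein behind different import signals. Atp5g1 read 866 and 1020 (-0.23), Atp5g2 read 1552 and 1648 (-0.087), and Atp5g3 read 3171 and 3412 (-0.11). All 3 were lower, Atp5g1 by the most in complex V though a dim second probe set went the other way (13.3 and 8.05), and only Atp5g3 turned after quantile normalisation.

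The peripheral stalk, which holds the head still against the rotor, was lower in 4 of 4 genes at a common median. Atp5j read 1993 and 2305 (-0.21), Atp5o, the subunit that confers oligomycin sensitivity, read 2132 and 2325 (-0.13), and Atp5h and Atp5pb differed by -0.077 and -0.035. The second probe set of Atp5o went the other way (816 and 716, 0.18). In the membrane part, 4 of 5 genes were lower at a common median. The differences were -0.18 for Atp5mpl (997 and 1133), -0.12 for Atp5l, -0.10 for Atp5j2 and -0.047 for Atp5k. Atp5md, a small subunit also called DAPIT that supports the pairing of ATP synthase into dimers, stood apart from this group at 1071 in KO and 822 in WT. Its difference of 0.37 (intensity ratio 1.30) lay between 0.36 and 0.40 under both other scalings and both other pseudocounts, and it rests on 1 probe set. At a common median Atp5md was the only member of complex V above WT. After quantile normalisation Atp5b, Atp5c1, Atp5g3 and Atp5pb also lay above WT, and after the loess Atp5b, Atp5h, Atp5k and Atp5pb. At chr19:47083471-47090647, Atp5md shares no chromosome with Ndufaf7 (chr17:78937106-78948052).

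The lean towards lower signal followed the signal level. Among members with a mean intensity of 1000 or more, 48 of 52 were lower in KO, with a median of -0.090, whereas 20 of 39 dimmer members were lower, with a median of -0.0024. Other named genes did the same: 72.8% of 834 genes at 1000 or more were lower (median -0.055), and 48.4% of 17276 dimmer ones (median 0.0052). At intensities from 1000 to 2000 the members' median was -0.087 against -0.037 for other genes, and from 2000 up it was -0.10 against -0.091. Spiked-in control RNAs, which carry no embryo RNA, were lower at every level, with medians of -0.054 under 500 (20 of 28 probe sets lower), -0.15 from 500 to 1000 (4 of 4), -0.060 from 1000 to 2000 (4 of 5) and -0.17 at 2000 or more (5 of 5). Their part in the result was not tested. Quantile normalisation brought the other bright genes to a median of -0.0035, with 51.2% of them lower. The 52 bright members came to -0.046, with 37 of 52 lower (71.2%). After the loess these medians were -0.0013 and -0.037, with 51.0% of the other bright genes and 38 of 52 members (73.1%) lower. Over the 91 genes, Pearson's r between level and difference was -0.16 and Spearman's rho -0.35, a description across genes that share both arrays.

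**Figure D3:**
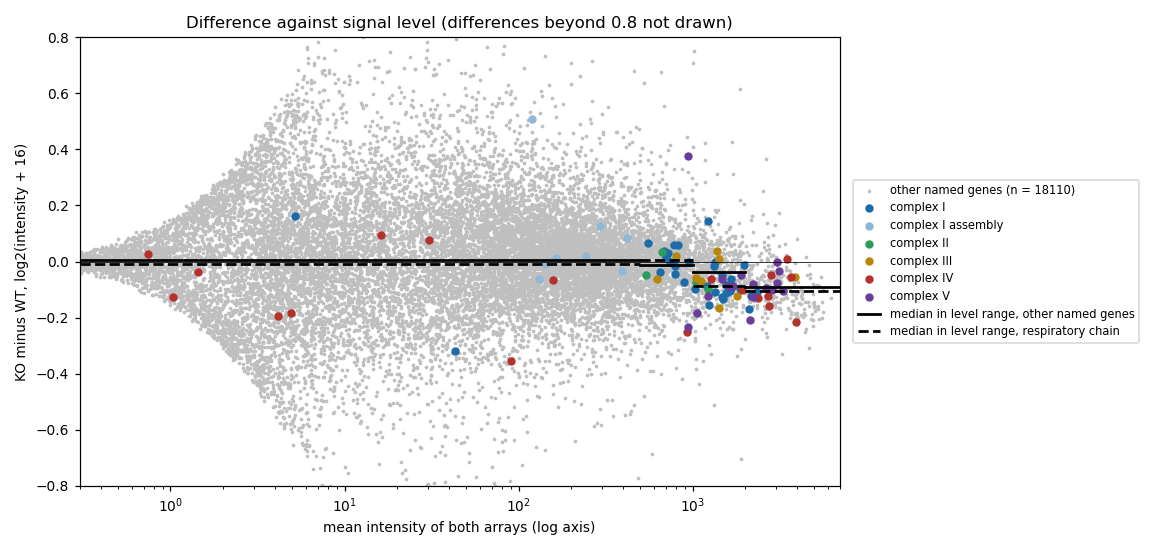
The horizontal axis is the mean intensity of both arrays (log axis) and the vertical axis the difference KO minus WT on the log2(intensity + 16) scale. Grey points are the 18110 other named genes, coloured points the 91 respiratory chain genes, and the lines are medians within level ranges, dashed for the chain and solid for other genes. From 1000 to 2000 they stand at -0.087 for the chain and -0.037 for other genes, and they nearly meet above 2000.

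The size of the lean differed between scalings. The median of the 91 genes was -0.062 at a common median, -0.039 after quantile normalisation and -0.025 after the loess. The count of lower genes was 68, 57 and 56 (74.7%, 62.6% and 61.5%), beside 49.7%, 49.7% and 50.2% of all named genes. The median of all genes passing the filter was -0.00061, -0.0026 and 0.00035 in that order, which such scalings hold near equal signal by construction. Across the 3 scalings 53 members were always lower and 22 always higher, counts that were not taken over all named genes. Quantile normalisation turned 11 members from lower to higher and the loess 13, among them Atp5b, Atp5pb, Cox6b1, Cox7a2, Uqcrb and Ndufb8 in both cases, and each turned Ndufaf3 from higher to lower. The order of the complexes changed as well. Complex IV had medians of -0.057 and -0.049, while complex V, second lowest at a common median, came to -0.019 and -0.024.

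**Figure D4:**
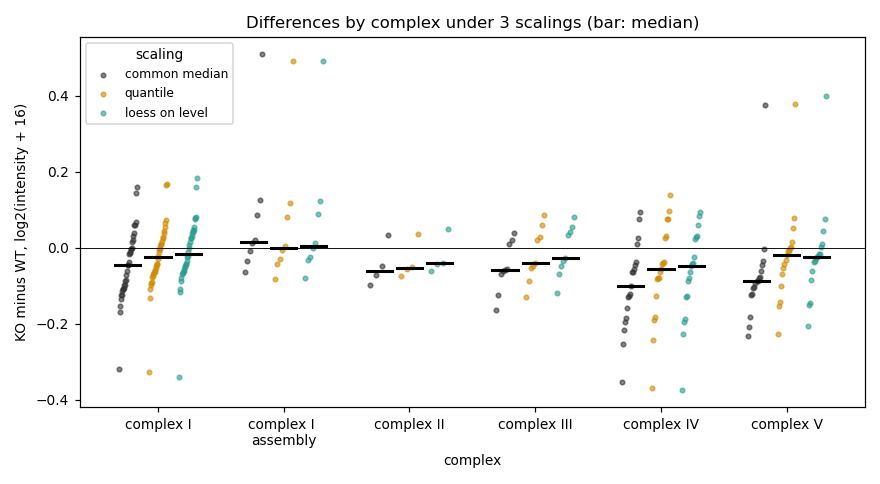
Each point is 1 gene, each bar a median, and the vertical axis is KO minus WT on the log2(intensity + 16) scale, with the complexes along the horizontal axis and 3 scalings side by side in each. Complex V moves from a median of -0.087 to -0.019 and -0.024, and complex IV from -0.10 to -0.057 and -0.049, while Ndufaf7 and Atp5md stay apart at the top.

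Probe sets of 1 gene gave a measure of how far the reading of a single gene depends on its probes. In 42 members, 2 or more probe sets passed the filter. Of these, 22 were lower in KO on all of them, 3 were higher on all of them (Ndufb2, Ndufb6 and Ndufv1), and 17 had both signs. These counts were not taken over other genes, of which 72.8% at 1000 or more were lower on their brightest probe set. The SD between probe sets of the same gene was 0.12, over 105 probe sets, and it was 0.17 over 9044 probe sets of other genes. This spread is between probe sets on the same arrays and does not include any spread between embryos. The median range within a gene was 0.066 and the widest 0.66, in Ndufs8.

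**Figure D5:**
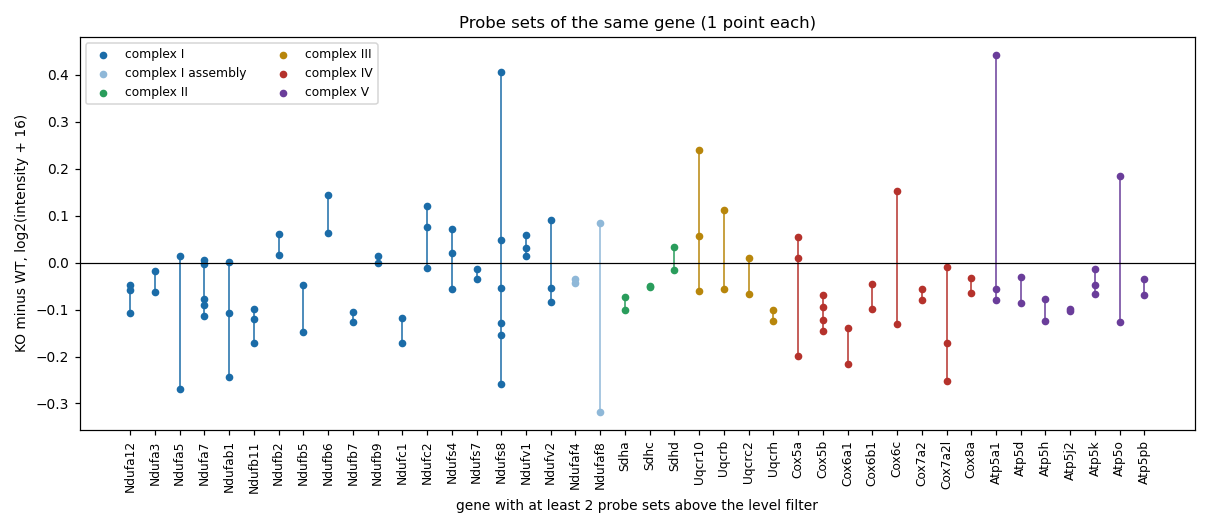
Each column is 1 of the 42 genes that have 2 or more probe sets passing the level filter, each point a probe set, and the vertical axis the difference KO minus WT on the log2(intensity + 16) scale. Points of Cox5b, Cox6a1, Ndufb11 and Ndufc1 lie wholly under 0, and those of Ndufs8, Atp5a1, Cox6c and Atp5o spread across it.

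Other lists of mitochondrial genes were read beside the chain, each with its count and median. Mitochondrial ribosomal protein genes, which translate the mitochondrially encoded subunits, were split 38 lower and 38 higher with a median of 0.0028. Their extremes were Mrps31 (-0.21) and Mrpl33 (-0.19) on one side and Mrps6 (0.31) and Mrps5 (0.26) on the other. Import genes were lower in 12 of 24 with a median of -0.0055, from Timm9 (-0.26) and Timm50 (-0.15) to Timm22 (0.12) and Tomm40l (0.10). Both medians changed sign with the choice of probe set. Citric acid cycle genes were lower in 12 of 17, with a median of -0.027, Idh3g (-0.14) and Pdha1 (-0.13) lowest and Pdhx (0.16) and Idh3a (0.082) highest. No gene of these lists was past 0.32 log2 units.

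Pooled over the complexes, assembly factors were more often higher than lower in KO. Of 45 measured, which include the 8 described above, 16 were lower, with a median of 0.041. This did not hold in every complex. For complex II, Sdhaf1 (-0.098), Sdhaf3 (-0.075) and Sdhaf4 (-0.075) were lower and Sdhaf2 (0.11) higher. For complex III, Ttc19, Uqcc2, Uqcc3 and Lyrm7, the last under the filter, were lower, and Bcs1l and Uqcc1 higher. Cox15, needed for the haem of complex IV, read 167 in KO and 106 in WT (0.59), and Atpaf2, a chaperone of the ATP synthase head, read 75.1 and 51.8 (0.42). Sco2, a copper chaperone of complex IV, was the lowest at 22.6 and 42.0 (-0.59), near the filter, followed by Acad9 (-0.11). Of the 44 passing the filter, 5 were higher by 0.32 log2 units or more, beside 4.26% of all genes passing it, and 1 was lower by as much, beside 2.72%.

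Electron carriers and the 1 mitochondrially encoded subunit named on the array were lower in 12 of 15, with a median of -0.049. ND5, the mitochondrially encoded proton-pumping subunit of complex I, read 911 in KO and 1192 in WT (-0.38), a wider gap than any nuclear member showed in that direction. Cycs, cytochrome c itself, was level at 2852 and 2808 (0.021). Coq5, an enzyme of ubiquinone synthesis, stood at -0.23, while Coq3 and Coq7 stood at 0.17 and 0.093.

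Genes of mitochondrial DNA upkeep and transcription had a median of 0.024 over 13, with 6 lower. Tfam, which packages and transcribes this DNA, read 642 and 604 (0.083), and Ssbp1, its single-strand binding protein, 2086 and 2232 (-0.098). Top1mt (-0.19), Mterf1a (0.15) and Mterf3 (0.086) were the other extremes. Regulators of mitochondrial biogenesis were split 8 and 8, with a median of -0.012 that turned to 0.0027 with the loess. Gabpa, the DNA-binding subunit of GABP, read 606 and 525 (0.20), Esrra 55.4 and 40.8 (0.33), Nrf1 79.9 and 84.1 (-0.063) and Sirt3 88.5 and 95.2 (-0.091). Ppargc1a, the coactivator best known for driving this programme, was under the filter in both arrays at 22.0 and 20.3.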

How the data were processed

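Total RNA (250 ng per sample, per the labels' protocols) was made into biotinylated cRNA and hybridised. The deposited values are a linear intensity for each of 45101 probe sets, made by the authors with Affymetrix Expression Console per the submitters' processing notes. The summary algorithm is not given in the sources used here. The plan had allowed for deposited log2 values. Medians were 13.2 in both arrays. Values were scaled to a common median and taken as log2(intensity + 16), which understates changes of dim genes. Of the probe sets, 34957 had 1 gene symbol in the platform annotation, 920 several, 9160 none and 64 were controls. Each of 18201 genes was read from its brightest probe set, and 9299 passed the level filter. Medians and counts of lower genes use all members, and calls at a fold threshold use those passing the filter. All member symbols matched RefSeq by Entrez number. Every member could be named, with full values for the brightest, highest and lowest of each complex, those past 0.32 log2 units, isoforms, X-linked members and chosen core subunits. Other lists gave the 2 farthest passing genes in each direction, with further genes such as Cycs, Tfam and Ppargc1a chosen after their values were seen. Members, lists and tests were chosen with earlier results of these data known, and the level ranges after seeing the values. The common-median procedure was tested on simulated data whose differences did not depend on level, and the other settings were not tested so. Alternatives covered scaling (loess span 0.3), pseudocount, probe set, filter, members and threshold. Precision is limited by 1 array per group. The software was Python 3.11.15 with matplotlib 3.10.9, statsmodels 0.14.6, scipy 1.17.1, pandas 2.3.3 and numpy 2.4.6.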

Additional observations from a re-analysis of the deposited data

Results flagged for a closer look

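A probe set annotated to both Ndufa11, a membrane arm subunit of complex I, and its copy Ndufa11b entered no comparison, since it names more than 1 gene. It was higher in KO than in the WT control by 0.27, at 865 and 712. With 1 array a group, outliers among samples were not looked for.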

How the results depend on the processing

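No paired analysis was possible because neither KO nor WT has a second array, and for the same reason none was left out. Of 189 alternative values, 165 lay within the tolerance set for them: for a median its 95% order-statistic interval over the genes, for a share its exact binomial interval, and for a count 1.5 times. Some of the 165 could not move, so that total is no measure of stability. Keeping structural subunits only leaves the genes of every complex as they were. Among the complexes, leaving out X-linked members changes only complex I, and leaving out tissue-restricted isoforms only complex IV. The intervals are wide for small lists, and within them complex medians still moved by over 1.5 times. Complex I came to -0.025 (quantile), -0.017 (loess) and -0.017 (no suffix x or s), complex II to -0.021 (probe sets averaged), complex III to -0.028 (loess) and -0.028 (probe sets averaged), and complex IV to -0.057 (quantile), -0.049 (loess) and -0.056 (pseudocount 64). Among the other lists, assembly factors came as low as 0.019 (median probe set), the citric acid cycle -0.049 (probe sets averaged) and import -0.037 (median probe set). Mitochondrial DNA genes came to 0.0039 (loess) and 0.068 (75th-percentile filter), and electron carriers to -0.019 (same filter). Outside the tolerance, quantile normalisation and the loess gave medians of -0.039 and -0.025 for all members and -0.019 and -0.024 for complex V, and counts of lower members of 57 and 56. Members lower by 0.32 log2 units or more numbered 2 under both and at a pseudocount of 1, and 0 at a pseudocount of 64, with a 75th-percentile filter, without probe sets of suffix x or s, and when probe sets were averaged. Those higher by as much numbered 1 with that filter and with structural subunits only. Biogenesis regulators turned to 0.0027 with the loess, 0.00083 at a pseudocount of 64, 0.028 with the 75th-percentile filter and 0.023 when probe sets were averaged. Mitochondrial ribosomal genes turned to -0.012 with the mean of probe sets, -0.014 with the median probe set, -0.0033 without those suffixes and -0.0028 with the 75th-percentile filter. Import genes turned to 0.036 with the mean of probe sets. The causes were not tested. Medians use no filter, so that setting gave no further value, and medians over members passing the filter were added after seeing the data. The 8 members under the level filter have signals too near background to be read as changes.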

Other observations

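Other probe sets with more than 1 symbol also cover complex I subunits. Those shared by Ndufb4 and its copies read 1078 in KO and 1044 in WT (0.044), and 722 in both arrays (-5.5e-05). The probe set shared by Ndufs6, an accessory subunit of complex I, and Ndufs6b read 1172 and 1273 (-0.12). One shared by Ndufab1 and its pseudogene read 1239 and 1165 (0.086), on the other side of the value from the gene's own probe set (-0.11).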
